A study of Mus musculus with 2 samples.

Results

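The genes described here encode 10 members of the BCL2 family, which controls whether a cell commits to apoptosis through its mitochondria. They were chosen by name: the pro-survival genes Bcl2, Bcl2l1 and Mcl1, the BH3-only genes Bcl2l11, Bbc3, Pmaip1, Bid and Bad, and the effector genes Bax and Bak1. All 10 were among the 13620 genes listed, and all 10 reached 1 CPM in at least 1 library. Polyadenylated RNA was measured in 1 library of wild-type mouse embryonic stem (ES) cells and 1 library of ES cells of genotype Fbxl10 T/T, both of the C57BL/6J strain. Fbxl10 is an older symbol of Kdm2b, whose protein binds unmethylated CpG islands as part of a variant Polycomb complex. Both cultures were kept in serum and LIF on inactivated embryonic fibroblasts, which were depleted by adhesion before the cells were used. The labels do not say what the T allele alters or whether either line is a single clone.

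Effector proteins BAX and BAK form pores in the outer mitochondrial membrane, which releases cytochrome c and starts the caspase cascade. Pro-survival proteins hold the effectors and the BH3-only proteins in check, and BH3-only proteins relay stress signals by binding pro-survival proteins or, for some, the effectors. Mouse ES cells are known to be readily killed by DNA damage, and their differentiation is known to be accompanied by apoptosis. Much of the control of this family acts on the proteins, through cleavage, phosphorylation, binding and turnover, which RNA levels do not show.

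Levels are given as normalised CPM, which are read counts per 1000000 reads of a library size that the authors adjusted. The recovered reads in listed genes numbered 21198574 for wild type and 27109446 for the T/T library. With 1 library per genotype, the difference between the genotypes has no replicate check and was not tested, and "higher" and "lower" describe these 2 libraries. Intervals are exact 95% intervals from the reads (Poisson for a level, Clopper-Pearson for a ratio) and cover counting error only. Log2 ratios compare Fbxl10 T/T with wild type after adding 0.5 CPM to each, so a gene with more RNA in the T/T library has a positive value, and differences of low genes are understated. Folds and percentages of the wild-type level use the CPM values as they stand.

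Kdm2b was at 102.5 CPM in the wild-type and 10.6 CPM in the T/T library. The library labelled as Fbxl10 T/T ES cells also differed from wild type in cell type markers. Of 10 pluripotency markers 8 were at least 2-fold lower and none higher, with a summed level of 5971 CPM for wild type and 1067 CPM for T/T, although Klf4 was at 591.1 and 513.7 CPM. All 10 primitive endoderm markers were at least 2-fold higher, with a summed level of 5018 and 45304 CPM. These sums rest mainly on Col4a1 (1862 and 18445 CPM), Sparc (1883 and 14636 CPM) and Lamb1 (786.8 and 7808 CPM). Of 11 fibroblast markers, which the feeder cells would express, 3 were lower and none higher, with a summed level of 1372 and 689.2 CPM. Most of that difference came from Fbln2 (545.6 and 237.3 CPM) and Fstl1 (372.0 and 79.5 CPM). Col1a1 (101.6 and 117.3 CPM) and Postn (10.8 and 14.9 CPM) were above their wild-type level and the others below it. No listed marker was at 0 in either library. These marker levels differed between the same 2 libraries as every ratio given below, and their part in the ratios was not tested. In RNA from whole cultures, fewer cells of a type and less RNA per cell cannot be told apart.

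One member, the BH3-only gene Bcl2l11, differed by 2-fold or more, and it was lower in Fbxl10 T/T. None of the 10 was 2-fold higher. Among the 13512 genes at 1 CPM or more, 20.6% were at least 2-fold lower and 14.8% at least 2-fold higher. The median log2 ratio was -0.24 over the members and 0.02 over all genes, and 6 members lay below the median of all genes. At a 1.5-fold threshold 4 members were lower (Bcl2l11, Bax, Pmaip1 and Mcl1) and Bad was higher, where 28.7% of all genes were lower and 26.5% higher. With only 10 members, counts this near the shares among all genes are no result about the family as a whole.

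**Figure D1:**
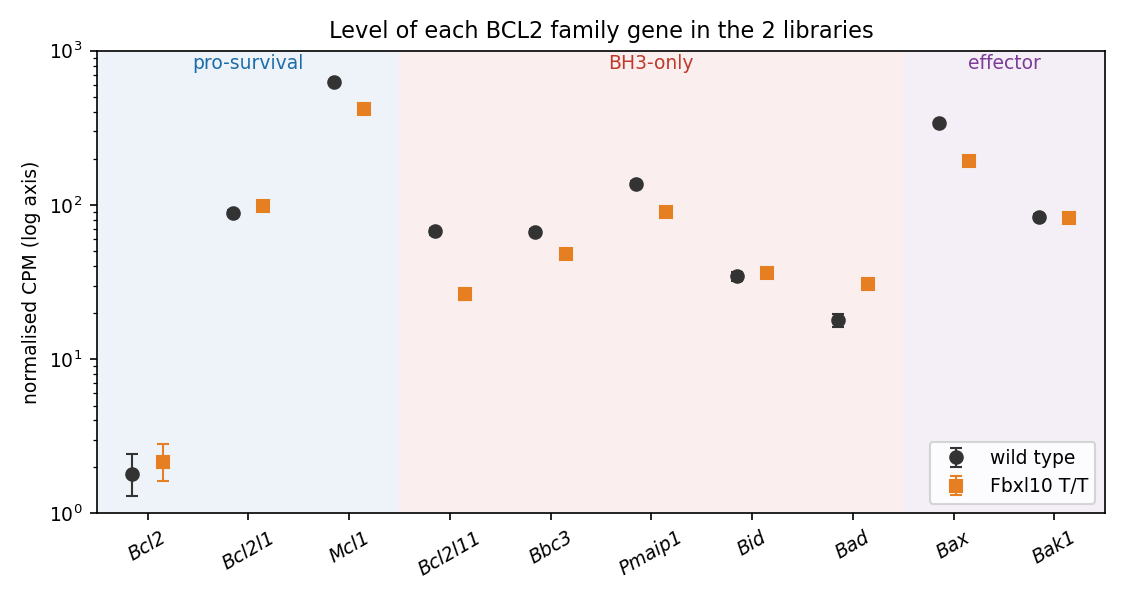
Normalised CPM of the 10 BCL2 family genes (logarithmic axis) in the wild-type library (circles) and the Fbxl10 T/T library (squares), with exact Poisson 95% counting intervals, grouped by role. Bcl2l11 went from 67.5 to 26.3 CPM, Bad from 17.9 to 30.8 CPM, and Bcl2 was near 2 CPM in both libraries.

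Promoter sequences of Bcl2l11 and Bad are shown because these members had the lowest and the highest log2 ratio, and because the altered gene encodes a protein that binds CpG islands. The sequences are the bases upstream of the RefSeq transcription start (build GRCm38.p6, plus strand), 250 bases each, and capitals mark each CG dinucleotide. The Bcl2l11 sequences are those of both its annotated starts.
Bcl2l11 upstream start, chr2:128125788-128126037: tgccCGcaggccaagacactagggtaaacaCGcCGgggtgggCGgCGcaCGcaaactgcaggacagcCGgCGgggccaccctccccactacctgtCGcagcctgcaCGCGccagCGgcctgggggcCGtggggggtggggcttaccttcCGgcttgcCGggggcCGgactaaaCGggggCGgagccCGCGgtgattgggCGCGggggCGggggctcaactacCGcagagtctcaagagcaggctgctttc
Bcl2l11 downstream start, chr2:128127325-128127574: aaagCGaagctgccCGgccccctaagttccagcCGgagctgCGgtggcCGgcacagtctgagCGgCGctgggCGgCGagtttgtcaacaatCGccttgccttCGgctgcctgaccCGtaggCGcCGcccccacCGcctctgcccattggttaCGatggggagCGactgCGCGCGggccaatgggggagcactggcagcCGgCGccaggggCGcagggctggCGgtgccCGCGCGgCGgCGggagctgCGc
Bad upstream start, chr19:6941611-6941860: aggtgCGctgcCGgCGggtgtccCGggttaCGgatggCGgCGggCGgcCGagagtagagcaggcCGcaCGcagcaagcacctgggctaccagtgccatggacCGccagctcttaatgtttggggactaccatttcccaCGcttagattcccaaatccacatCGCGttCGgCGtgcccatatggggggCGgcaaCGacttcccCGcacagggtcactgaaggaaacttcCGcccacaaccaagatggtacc
These stretches hold 24, 30 and 21 CG dinucleotides. Another annotated start of Bad, whose stretch overlaps an annotated exon and is not shown, holds 18 in 250 bases. The promoters at both ends of the range are thus rich in CpG. Windows of 300 bases (250 before and 50 after the start) were available for 9 of the 10 members, Pmaip1 being the one without. The richest window of a member held between 11 CG (Bak1) and 44 CG (Bcl2). Of the 9 members, 7 had a window with more than 20 CG, the upper quartile of all 32851 windows, and the others were Bax with 19 and Bak1 with 11. The same was true of 27.0% of the 27025 genes with a window and of 56.8% of the 10038 genes at 1 CPM or more that were matched by symbol. The members with the richest windows, Bcl2, Bbc3 and Bcl2l11, with 44, 39 and 38 CG, had log2 ratios of 0.20, -0.47 and -1.34. A relation between CpG content and the ratios was not tested. Methylation and binding at these promoters were not analysed here.

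The pro-survival genes divided. Mcl1, which encodes a short-lived protein that binds BAK and several BH3-only proteins, was at 629.3 CPM in wild type (interval 619.2 to 639.4) and at 418.7 CPM in Fbxl10 T/T (410.7 to 426.9). Its T/T level was 66.5% of that in wild type (64.9 to 68.2%), from 15028 and 10337 reads, the most of any member. Bcl2l1, which encodes BCL-XL and by splicing the shorter death-promoting BCL-XS, was at 88.9 CPM (85.1 to 92.7) and 98.8 CPM (94.9 to 102.8). Its ratio was 1.11 (1.05 to 1.18), a small difference whose direction turned with rescaling to a common upper quartile (log2 ratio -0.09) or to equal sums (-0.15). Bcl2, the founding member of the family, was at 1.80 CPM (1.30 to 2.43) and 2.15 CPM (1.61 to 2.81), from 43 and 53 reads. Its ratio of 1.19 had a counting interval from 0.78 to 1.83, so a difference was not detectable at this depth, and with equal sums its log2 ratio was -0.04. Bcl2 ranked at percentile 11.7 of all genes by mean CPM, whereas Mcl1 ranked at percentile 98.2 and Bcl2l1 at 81.3.

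The BH3-only genes ranged from the lowest to the highest ratio of the family. Bcl2l11, which encodes BIM, a protein that binds all the main pro-survival members, was at 67.5 CPM in wild type (64.2 to 70.9) and 26.3 CPM in Fbxl10 T/T (24.3 to 28.4). It kept 39.0% of its wild-type level (35.6 to 42.8%), which is 2.56-fold lower, from 1612 and 650 reads. The gene (ENSMUSG00000027381) lies on chromosome 2 from 127951774 to 127988283 in mm9, and its log2 ratio of -1.34 was at percentile 16.1 of all genes. In the authors' deposited table its log2 ratio, taken the other way round, is 1.36. BIM is made in several splice forms, and the gene-level value does not separate them.

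The p53-induced BH3-only genes Pmaip1 and Bbc3 were lower by smaller amounts. Pmaip1 encodes NOXA, which binds MCL1, and was at 137.3 CPM (132.7 to 142.1) and 89.6 CPM (85.9 to 93.5), 1.53-fold lower (1.45 to 1.62). Bbc3 encodes PUMA, which binds all the main pro-survival members, and was at 66.7 CPM (63.4 to 70.0) and 47.9 CPM (45.2 to 50.7), which is 71.9% of wild type (66.6 to 77.6%). Neither pair of intervals overlapped, and neither gene reached the 2-fold rule under any alternative tried at that threshold.

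Bid and Bad were not lower as deposited. Bid, whose protein is cleaved by caspase-8 and links death receptors to mitochondria, was at 34.5 CPM (32.2 to 37.0) and 36.0 CPM (33.6 to 38.4). The intervals overlapped, the ratio was 1.04 (0.95 to 1.15), and the log2 ratio of 0.06 turned to -0.18 with a common upper quartile and -0.24 with equal sums. Bad, whose protein is kept inactive by growth factor signalling through phosphorylation, was at 17.9 CPM (16.2 to 19.7) and 30.8 CPM (28.7 to 33.1). Its ratio of 1.72 (1.53 to 1.95) was the highest of the family, at percentile 79.4 of all genes, and stayed above 1 under every scaling tried (lowest log2 ratio 0.47).

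The effector genes differed from each other. Bax was at 339.5 CPM in wild type (332.2 to 347.0) and 193.5 CPM in Fbxl10 T/T (188.1 to 199.1), 1.75-fold lower (1.69 to 1.82), from 8109 and 4777 reads. Its log2 ratio of -0.81 became -1.05 with a common upper quartile and -1.12 with equal sums, which takes it past the 2-fold rule. Bak1 was at 83.4 CPM (79.8 to 87.2) and 82.6 CPM (79.1 to 86.3), with overlapping intervals and a ratio of 0.99 (0.93 to 1.05). Its log2 ratio was -0.32 with equal sums. BAX and BAK can each form the pore, and of their RNAs only that of Bax had a counting interval below its wild-type level as deposited.

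**Figure D2:**
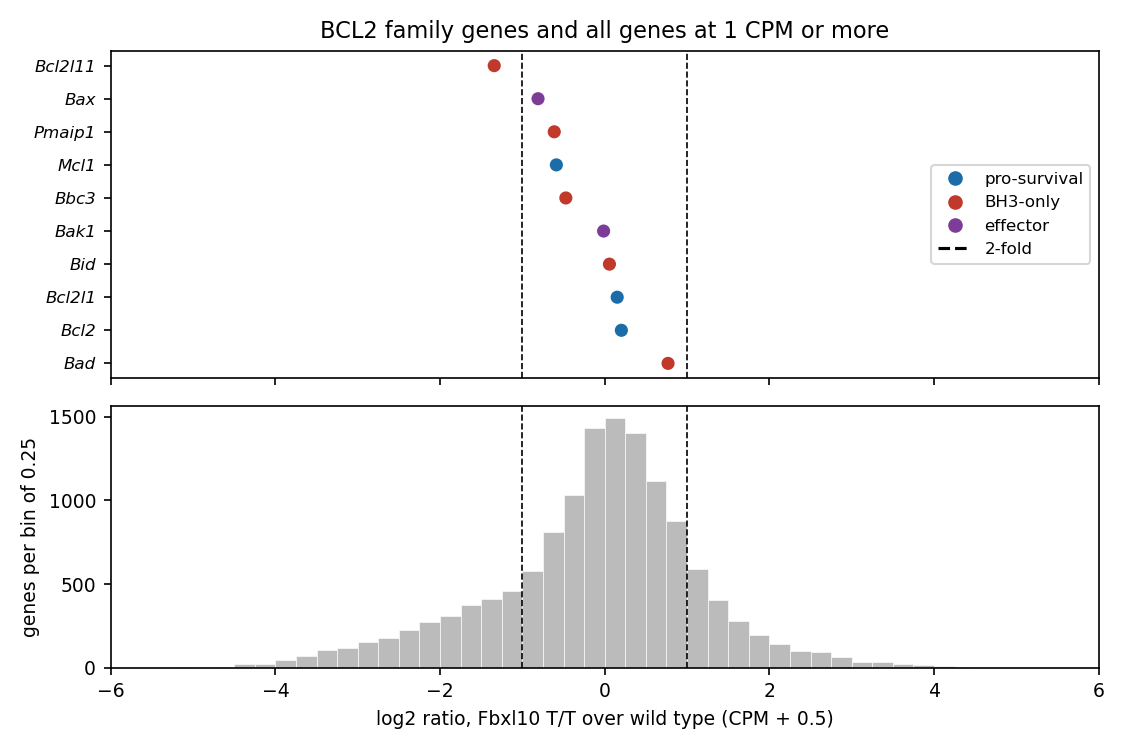
Upper panel: log2 ratio (Fbxl10 T/T over wild type, CPM + 0.5) of each BCL2 family gene, coloured by role. Lower panel: number of genes per bin of 0.25 among the 13512 genes at 1 CPM or more, with values beyond the axis placed in the end bins. Dashed lines mark 2-fold. Bcl2l11 at -1.34 is the only member outside the dashed lines, and Bad at 0.77 is the highest.

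In counting terms 7 of the 10 ratios had an interval that excluded 1, with 5 below (Mcl1, Bcl2l11, Bbc3, Pmaip1 and Bax) and 2 above (Bcl2l1 and Bad). Among all genes 83.9% of the intervals excluded 1 (40.9% below and 43.1% above), so at this depth most genes did so. An exact binomial test of the reads, which compares the libraries and not the genotypes, called 7 members and 83.5% of all listed genes at an adjusted p of at most 0.05. Bcl2, Bid and Bak1 had intervals that held 1. The comparison of Bcl2 was limited by its 43 and 53 reads, whereas the T/T level of Bid lay between 94.6% and 114.6% of its wild-type level and that of Bak1 between 93.1% and 105.4%.

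Genes of one library can be compared with each other only per length. Divided by the length of the union of their exons in GENCODE M21, Bax (215.4 CPM per kb) and Mcl1 (184.1 CPM per kb) were the most abundant members in wild type, and their counting intervals did not overlap. Pmaip1 followed at 50.3, Bak1 at 34.7, Bbc3 at 31.4, Bcl2l1 at 19.4, Bid at 9.73, Bcl2l11 at 8.41, Bad at 6.99 and Bcl2 at 0.20 CPM per kb. In Fbxl10 T/T Bax (122.8 CPM per kb) and Mcl1 (122.5 CPM per kb) did not differ beyond counting error. Bak1 (34.3) and Pmaip1 (32.8) had overlapping intervals too, as did Bbc3 (22.6) and Bcl2l1 (21.5). Below these, the order of the BH3-only genes changed: Bad (12.1 CPM per kb) stood above Bid (10.1), and Bcl2l11 (3.28) was the lowest member but for Bcl2 (0.23). The annotation behind the deposited values is not known, so the lengths are approximate. With the longest coding transcript as length, Bax (175.9 CPM per kb) stayed above Mcl1 (122.5) in Fbxl10 T/T, Bcl2l1 (38.5) moved to the third place there, and Bcl2 remained last in both libraries.

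The summed level of the 10 members per kb of exon was 560.6 CPM per kb for wild type and 382.2 CPM per kb for T/T, 1.47-fold lower. Summed pro-survival RNA was 1.41-fold lower (203.7 and 144.3 CPM per kb), BH3-only RNA 1.32-fold lower (106.8 and 80.8) and effector RNA 1.59-fold lower (250.1 and 157.1). The makeup of the family moved little. Pro-survival genes made up 36.3% of the wild-type and 37.7% of the T/T sum, BH3-only genes 19.0% and 21.1%, and effectors 44.6% and 41.1%. These sums rest mainly on Mcl1 and Bax, which gave 32.8% and 38.4% of the family in wild type. With the longest coding transcript as length the effector share was 49.8% for wild type and 44.5% for T/T. The shares do not depend on how the libraries are scaled to each other. The folds of the sums do depend on it and use the deposited scaling. Each rescaling tried lowers the T/T values, by 0.13, 0.24 or 0.31 on the log2 scale, and so makes these folds larger.

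The balance between death and survival genes was compared within each library, as the ratio of a BH3-only or effector gene to a pro-survival gene. The double ratio is this ratio in Fbxl10 T/T over that in wild type. Gene length and library scaling cancel in it, and its 95% interval was computed from the reads without adjustment over the 21 pairs, which share members. Of the 21 pairs, 11 had an interval below 0 on the log2 scale, 4 above 0 and 6 held 0.

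The direction depended on which pro-survival gene was the reference. Against Bcl2l1, 5 of the 7 death genes were relatively lower, 1 (Bad) was higher and 1 (Bid) had an interval that held 0. Of all genes at 1 CPM or more with reads in both libraries, compared with Bcl2l1 in the same way, 46.8% lay below 0 and 35.7% above. The Bcl2l11 to Bcl2l1 ratio was 2.85-fold lower in Fbxl10 T/T (2.56 to 3.17), the Bax to Bcl2l1 ratio 1.95-fold lower (1.82 to 2.09) and the Pmaip1 to Bcl2l1 ratio 1.70-fold lower (1.57 to 1.84). Against Mcl1, which was itself lower, 2 were relatively lower (Bcl2l11 and Bax), 3 higher (Bid, Bad and Bak1) and 2 held 0. Of the same genes 23.7% lay below 0 and 65.1% above relative to Mcl1.

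The ratio of Pmaip1 to Mcl1 differed little between the libraries, with a double log2 ratio of -0.03 (-0.11 to 0.06). NOXA, the product of Pmaip1, is known to bind MCL1 and to promote its degradation. The Bbc3 to Mcl1 double log2 ratio was 0.11 (-0.0030 to 0.23). Relative to Mcl1, Bcl2l11 was 1.71-fold lower (1.55 to 1.87) and Bax 1.17-fold lower (1.12 to 1.22), while Bad was 2.59-fold higher (2.30 to 2.92) and Bak1 1.49-fold higher (1.39 to 1.59). Against Bcl2 the intervals were wide, and 4 of the 7 lay below 0, with Bcl2l11 3.06-fold lower (2.02 to 4.62). The shares of these genes relative to Bcl2 were 34.6% below 0 and 18.6% above. Bcl2l11 had the lowest ratio of all members, so it was bound to be lower relative to each of the pro-survival genes. These comparisons reuse its value and are not separate findings.

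**Figure D3:**
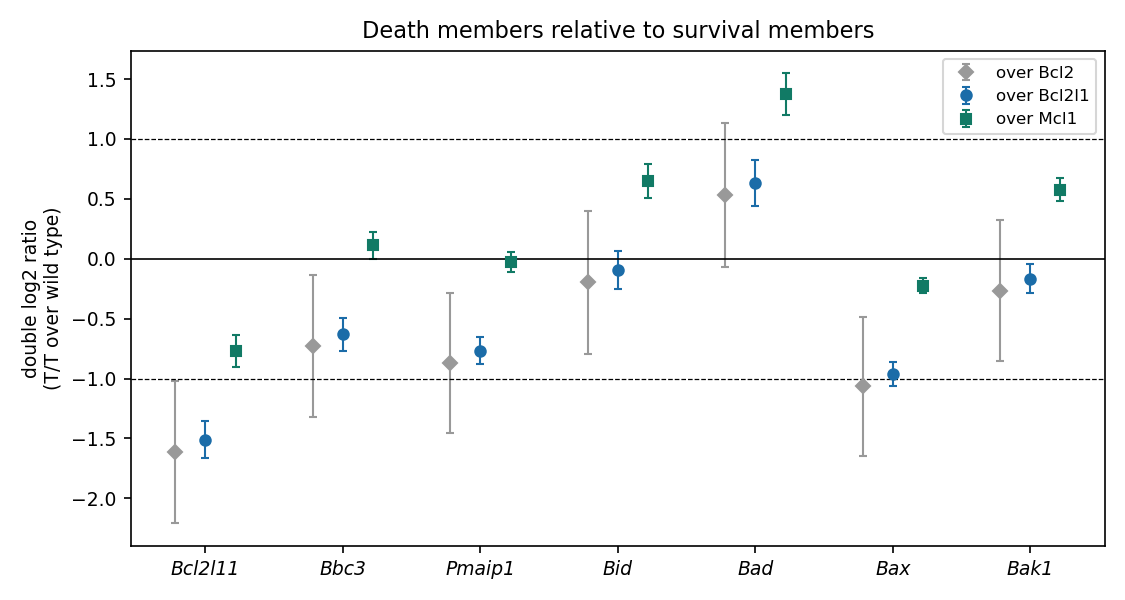
Double log2 ratio (Fbxl10 T/T over wild type) of each BH3-only or effector gene over Bcl2 (diamonds), Bcl2l1 (circles) or Mcl1 (squares), with 95% counting intervals and dashed lines at 2-fold. Bcl2l11, the member with the lowest ratio, lies below 0 against all 3 references, and Bad over Mcl1, at 1.37, is the highest point.

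Of 87 further apoptosis genes in 10 lists, 77 were measured at 1 CPM or more. At the 2-fold rule 10 were higher, 10 lower and 57 in between, which is 13.0% in each direction against 14.8% higher and 20.6% lower among all genes. The median log2 ratio was 0.15. The split became 8 higher and 14 lower with a common upper quartile (all genes: 1438 and 3254) and 7 and 16 with equal sums (all genes: 1310 and 3405), against 1994 and 2781 for all genes as deposited.

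The other genes of the BCL2 family follow by role. Bok, which encodes a BAX-like protein, was at 23.7 CPM in the wild-type and 4.42 CPM in the T/T library, 5.38-fold lower (4.37 to 6.66). Bmf, a BH3-only gene known to respond to loss of attachment, was at 22.3 and 4.98 CPM, 4.48-fold lower (3.68 to 5.50). Bik, also BH3-only, was at 1.97 and 0.203 CPM, from 47 and 5 reads. Hrk, a BH3-only gene best known from neurons, was at 34.2 and 55.3 CPM and did not reach 2-fold. With Bmf, Bik and Hrk added, 3 of 8 BH3-only genes (Bcl2l11, Bmf and Bik) were at least 2-fold lower and none higher. Among all genes 20.6% were lower and 14.8% higher. Bik is not called with a minimum of 5 CPM, and Bnip3, described next, was higher but is not counted among the 8.

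Bnip3, which encodes a BH3-containing mitochondrial protein induced by hypoxia and active in mitophagy, was 2.89-fold higher, at 23.7 and 68.7 CPM. Its relative Bnip3l was at 38.0 and 48.5 CPM. The pro-survival gene Bcl2l2, which encodes BCL-W, was at 85.5 and 46.7 CPM, 1.83-fold lower (1.70 to 1.97), and passed the 2-fold rule with a common upper quartile or equal sums. Bcl2l2 was the only listed gene of the 6 other pro-survival genes. Bcl2l12 was at 9.17 and 7.70 CPM and Bcl2l13 at 104.6 and 134.8 CPM.

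Of 10 genes of the apoptosome and caspases 3 were higher and none lower (median log2 ratio -0.0032). For this list and the next, the shares among all genes were 14.8% higher and 20.6% lower. Apaf1, which encodes the scaffold of the apoptosome, was at 44.3 CPM in the wild-type and 150.4 CPM in the T/T library, 3.39-fold higher (3.17 to 3.64). Cycs, the cytochrome c gene, was listed at 4.06 and 3.81 CPM, but it has pseudogenes with which reads can be shared, so its level is uncertain. Of 7 inhibitor of apoptosis genes and their antagonists 1 was lower, Birc3, chosen after its value was seen (2.76 and 0.284 CPM), and none higher. Birc6, a ubiquitin ligase gene of this group, was at 36.3 and 56.5 CPM and Diablo, which encodes SMAC, at 57.2 and 49.6 CPM.

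Among 9 mitochondrial partners 1 was higher and none lower (median 0.22), where 14.8% of all genes were higher and 20.6% lower. Endog, a mitochondrial nuclease gene, was 2.55-fold higher at 4.52 and 11.5 CPM, and Ppif, which encodes cyclophilin D, was at 71.5 and 53.5 CPM. Endog fell short of 2-fold with equal sums (log2 ratio 0.97). Of 10 death receptor and adaptor genes 4 (40%) were higher and 2 (20%) lower, against the same 14.8% and 20.6% of all genes. The median of 0.79 was the highest of the 10 lists. The higher genes numbered 3, without Fadd, after each of the 3 rescalings and with a pseudocount of 1 CPM. The lower genes numbered 1, without Mlkl, with a pseudocount of 1 CPM or a minimum of 5 CPM. Tnfrsf1a, a TNF receptor gene, was 3.47-fold higher (3.24 to 3.73) at 41.9 and 145.5 CPM, whereas Ripk3, a necroptosis kinase gene, was 7.20-fold lower (6.14 to 8.49) at 51.0 and 7.09 CPM.

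Of 14 genes of p53 and its targets 3 (21.4%) were lower and 1 (7.1%) higher, against 20.6% and 14.8% of all genes. The share of lower genes was thus near that of all genes. The lower genes were Trp53, its relative Trp73 and Perp. The median of the list, -0.46, was the lowest of the lists with more than 1 gene. Trp53 itself, chosen after its value was seen, was at 734.7 CPM in the wild-type and 133.4 CPM in the T/T library, 5.51-fold lower (5.31 to 5.72), and a pseudogene named after it could share its reads. Perp, a p53 target that encodes a membrane protein of desmosomes, was 9.83-fold lower (139.4 and 14.2 CPM). Eda2r, another p53 target, was 2.37-fold higher (20.0 and 47.4 CPM). It fell short of 2-fold with a common upper quartile or equal sums, where the list had 0 higher genes and 4 or 5 lower. The p53-induced family members Bax, Pmaip1 and Bbc3 were 1.75-, 1.53- and 1.39-fold lower, while Cdkn1a, a classical p53 target also chosen after its value was seen, was at 304.4 and 420.5 CPM. Genes of the p53 list thus lay on both sides of their wild-type level.

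Of 8 other regulators of BH3-only genes 1 was lower and none higher, where 20.6% of all genes were lower and 14.8% higher. FOXO factors are known activators of Bcl2l11, and whether their levels bear on its ratio here was not tested. Foxo4 was 4.25-fold lower (119.3 and 28.1 CPM). Foxo1, chosen after its value was seen, was at 54.3 and 37.9 CPM (log2 ratio -0.51), and Foxo3 was 1.61-fold above wild type (105.5 and 169.6 CPM). With each of the 3 rescalings 2 of the 8 were lower, Trib3 (log2 ratio -0.96 as deposited) being the other. None of 10 genes for turnover and binding partners of the family differed 2-fold as deposited. March5, a mitochondrial ubiquitin ligase gene, was at 217.0 and 124.8 CPM and passed the rule as lower with a common upper quartile or equal sums. Among the same genes, Bag1, a co-chaperone gene whose product binds BCL2, was at 131.2 and 223.3 CPM.

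**Figure D4:**
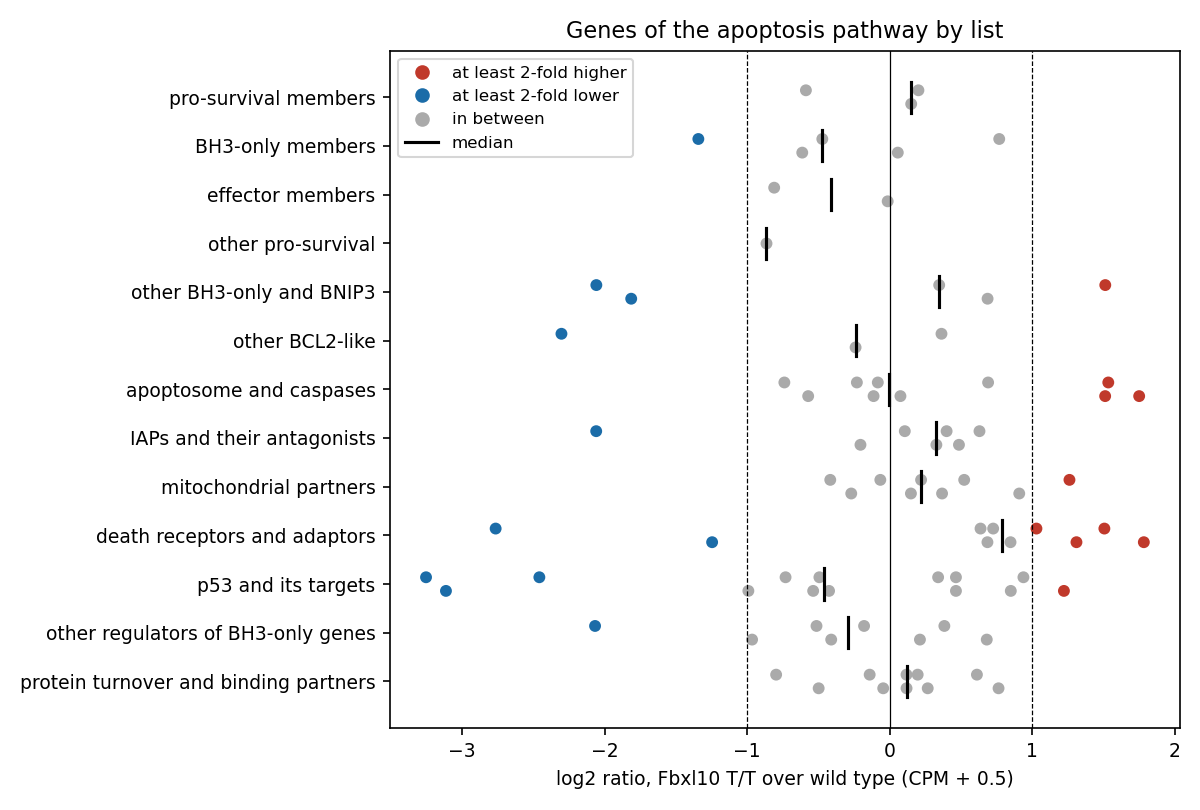
Log2 ratio (Fbxl10 T/T over wild type, CPM + 0.5) of each measured gene, by list, with black bars at list medians and dashed lines at 2-fold. One member, in the BH3-only row, lies past 2-fold, and the list of death receptors and adaptors has the highest median, 0.79.

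Scaling bears on several members because the levels of their RNA were close in both libraries. Rescaling Fbxl10 T/T to the median, upper quartile or sum of wild type shifted its values down by 0.13, 0.24 or 0.31 on the log2 scale. Bcl2, Bcl2l1 and Bid changed direction under at least 1 of these, and the other 7 did not. Bcl2l11 stayed between -1.64 and -1.33 over all pseudocounts, minimums and scalings tried.

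**Figure D5:**
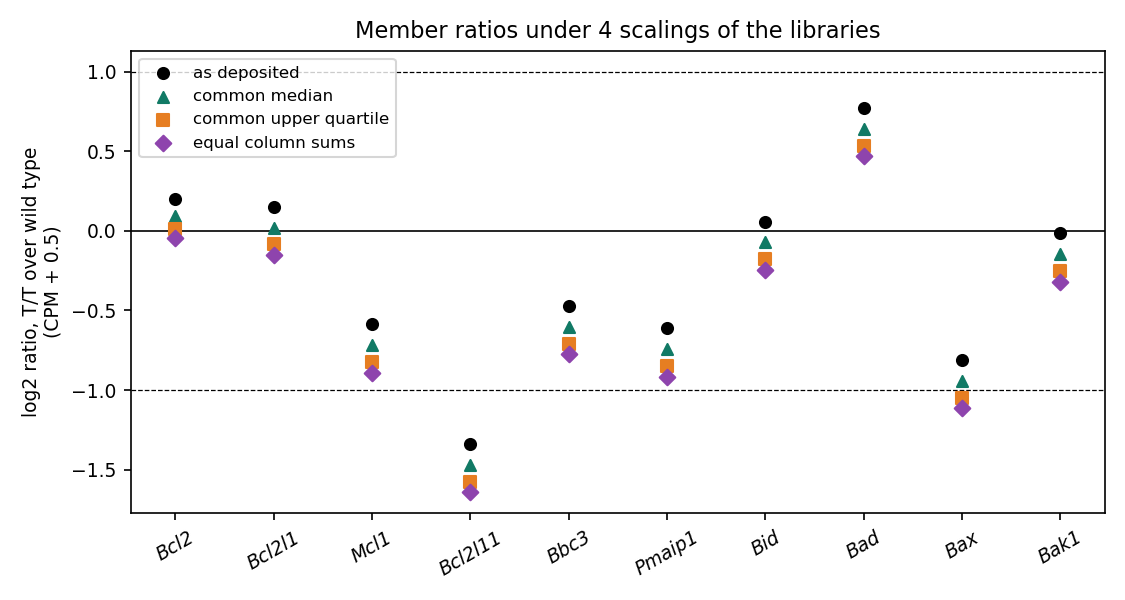
Log2 ratio (Fbxl10 T/T over wild type, CPM + 0.5) of each BCL2 family gene with the deposited scaling and after rescaling to a common median, a common upper quartile or equal column sums. Bcl2, Bcl2l1 and Bid cross 0, Bax crosses the dashed 2-fold line at -1, and Bcl2l11 stays below it.

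Some members share exon sequence with other genes in GENCODE M21, and the strand setting of the counting is not given in the sources used here. On the opposite strand, exons of Bid overlap those of Bcl2l13 (104.6 and 134.8 CPM), exons of Bad those of Gpr137 (12.8 and 17.9 CPM) and exons of Bak1 those of Ggnbp1 (7.12 and 1.58 CPM). Bcl2 has an overlapping antisense gene, and Bax overlaps Gm45808 on its own strand, neither with values here. How reads in such overlaps were assigned was not tested, so the levels of Bid, Bad, Bak1, Bcl2 and Bax carry this uncertainty. Exons of Mcl1, Bcl2l1, Bcl2l11, Bbc3 and Pmaip1 overlap no other annotated gene.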

How the data were processed

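Polyadenylated RNA was sequenced from 1 wild-type and 1 Fbxl10 T/T ES cell culture. Per the submitters' processing notes, TopHat 1.4.1, HTSeq 0.5.3p9 and edgeR were used with build mm9. What each tool did, which annotation was counted and whether strand was used is not stated there. The deposited signal is gene read counts per 1000000 reads of an adjusted library size: all values (100%) were whole multiples, within 0.01 reads, of 1 step per library (0.0419 CPM for wild type, 0.0405 CPM for T/T), so whole reads were recovered. The deposited log2 ratio of the authors is wild type over T/T and differed by at most 0.0013 from that of the signal for the members. The file has 24706 rows for 13620 genes, and repeated rows were used once.

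A gene that reached 1 CPM in either library was called 2-fold higher or lower on the log2(CPM + 0.5) scale. Because the unit is not a count, a count test was only added: an exact two-sided binomial test of the recovered reads with Benjamini-Hochberg adjustment, which compares the libraries and not the genotypes, called 11372 of 13620 genes (83.5%) and 7 of the 10 members at an adjusted p of at most 0.05. Double ratio intervals use the delta method. Named genes are the members, Kdm2b, the highest and lowest log2 ratio of each list among genes at 5 CPM or more, and every gene of lists of up to 6; a gene the rule picks is not reported here. The members and lists were chosen with earlier results of these data known. Of the list genes, 116 matched by the symbol in the file and 2 through GENCODE M21. Promoters are RefSeq sequences (GRCm38.p6), and GENCODE M21 gave lengths and overlaps only. The steps were tested on simulated reads. Computations used scipy 1.17.1, numpy 2.4.6 and pandas 2.3.3 under Python 3.11.15, and figures matplotlib 3.10.9.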

Additional observations from a re-analysis of the deposited data

How the results depend on the processing

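No paired analysis was possible because each genotype had a single library, so leaving one out was not possible either. The count of members at least 2-fold lower, 1 as reported, was 2 with a common upper quartile or equal sums (Bax was added), 4 at 1.5-fold and 0 at 4-fold; the count higher was 1 at 1.5-fold. The median log2 ratio of the members was -0.47 with a minimum of 5 CPM, which removes Bcl2, and -0.37, -0.48 and -0.55 with a common median, a common upper quartile and equal sums. Pathway genes numbered 23 higher and 16 lower at 1.5-fold, 0 higher at 4-fold and 16 lower with equal sums. Among all genes, 1310 were higher with equal sums, 3582 at 1.5-fold and 519 at 4-fold, while 1737 were lower with a minimum of 5 CPM and 1229 at 4-fold. Pseudocounts of 0.1 and 1 CPM, no minimum and the added binomial test left the member counts at 0 and 1. Double ratios have no alternative, as they use no pseudocount and scaling cancels. The lengths from the longest coding transcript, added after the data were seen, moved the effector share of the family from 44.6% to 49.8% in wild type. Depth limits mainly Bcl2, with 43 and 53 reads.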

Other observations

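The death receptor list held genes of opposite direction. The genes that follow, of this and other lists, were chosen after their values were seen. Casp8 and Casp6 belong to the list of the apoptosome and caspases and Trp73 to the p53 list, where they were counted above. Fadd, the adaptor gene that recruits caspase-8, was at 7.20 CPM in the wild-type and 15.2 CPM in the T/T library (2.11-fold higher, interval 1.76 to 2.55). It fell short of 2-fold after each of the 3 rescalings and with a pseudocount of 1 CPM (log2 ratio 0.73 to 0.98). Casp8 was at 3.18 and 10.01 CPM (3.14-fold higher, 2.42 to 4.12), Ripk1 at 7.24 and 21.5 CPM (2.97-fold higher) and Tnfrsf21, a death receptor gene, at 17.5 and 44.3 CPM (2.52-fold higher, 2.25 to 2.83). Mlkl, which encodes the pore-forming protein of necroptosis downstream of RIPK3, was at 1.55 and 0.365 CPM, from 37 and 9 reads (4.25-fold lower, 2.01 to 10.01). Mlkl fell short of 2-fold with a pseudocount of 1 CPM (log2 ratio -0.90). Casp6, a caspase gene, was 2.99-fold higher at 10.4 and 31.0 CPM. Trp73, a p53 relative, was at 7.33 and 0.405 CPM, from 175 and 10 reads.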
